A study of Mus musculus with 6 samples.

Results

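The Cyp2c cytochromes are a family of mouse cytochrome P450 genes. Named here are Cyp2c29, Cyp2c37, Cyp2c38, Cyp2c39, Cyp2c40, Cyp2c44, Cyp2c50, Cyp2c54, Cyp2c68 and Cyp2c70, 10 genes out of the 47232 gene names used in the liver RNA-Seq of this series. They were taken by gene name. Under their own name 9 of the 10 were found. Cyp2c44 is listed under its RefSeq synonym Cyp2c23, and that entry was used. All 10 passed the filter on low values and are among the 18619 gene names tested, and none was marked as a failed estimate in the 5 mice for which failures are marked.

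Cytochrome P450 enzymes of this family sit in the membrane of the endoplasmic reticulum, take electrons from the reductase encoded by Por, and insert oxygen into drugs, steroids and fatty acids. Several mouse members, among them the products of Cyp2c29, Cyp2c37, Cyp2c38, Cyp2c44, Cyp2c50 and Cyp2c54, turn arachidonic acid into epoxides, which soluble epoxide hydrolase then opens. In liver the family is known to respond to the xenobiotic receptors CAR (Nr1i3) and PXR (Nr1i2), and several members are known to differ between male and female mice through the pattern of growth hormone release.

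Liver RNA was sequenced in 6 house mice (Mus musculus) to give an expression reference for chromatin assays of formalin-fixed specimens. The laboratory group was 3 inbred C57BL/6 males from a breeder, aged 17 to 18 weeks. The wild group was 3 outbred adults of unstated age, trapped at 2 sites and housed for 3 months before sampling. Wild mouse 1 was male, wild mice 2 and 3 were female, and wild mice 1 and 2 came from the same site. The sources name no transgene and no treatment. Genotype, rearing, age, diet, housing and time of collection go with the group and cannot be told apart from it. Sex goes with the group in part, since there was only 1 wild male. The RNA came from flash-frozen liver that had not been fixed.

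The values are FPKM, the fragments assigned to a gene scaled to the length of the transcript and the size of the library, and zFPKM, which centres the log2 FPKM of each mouse on its own mode and divides it by its own SD. FPKM is scaled to transcript length, so the levels of different genes can be set side by side. The absolute depth is unknown, and the relative depth of the libraries ran from 0.922 to 1.36 times that of laboratory mouse 2. Against modes of log2 FPKM of 0.491 to 1.77 in the other mice, laboratory mouse 3 had one of 2.12 and wild mouse 1 one of 2.51. These 2 libraries had the highest modes, without a clear gap below them. Calls by origin alone were repeated without each of them. Fits with sex could not be made without wild mouse 1, the only wild male, and rest on that library. Of 8 kidney markers none passed the filter, and all were at or near 0. Hepatocyte markers were high in every mouse, with a summed FPKM of 29718 to 40769 in the laboratory group and 24822 to 26350 in the wild group over the 10 of 12 that could be used. Of those 10, 3 were called higher in laboratory mice by the origin comparison described further on (Apoa1, Serpina1a and Ttr) and 5 lower (Apob, Ass1, Hpd, Tat and Tdo2), against 1 and 7 on log2(FPKM + 0.1) and 3 and 3 without wild mouse 1. In whole liver, fewer hepatocytes of one zone and less RNA per cell cannot be told apart.

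Of the 10 genes, 9 lie in 1 cluster on chromosome 19 (GRCm38.p6), from Cyp2c29 at chr19:39287044-39330713 to Cyp2c70 at chr19:40153361-40187286. Cyp2c44 stands apart at chr19:44005022-44029256. Coding sequences of the longest GENCODE transcripts were between 59.6% and 96.1% identical over the 45 pairs of the 10 genes, with a median of 75.0%. At a limit of 85% identity, chosen after the values were seen, they fell into subgroups. Cyp2c29, Cyp2c38 and Cyp2c39 were 89.1% to 94.2% identical to each other. Cyp2c37, Cyp2c50 and Cyp2c54 were 95.1% to 96.1% identical. Cyp2c40 and Cyp2c68 fell together with Cyp2c67 and Cyp2c69, 2 further genes of the family, at 92.2% to 97.7%. Cyp2c70 and Cyp2c44 were each alone.

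**Figure D1:**
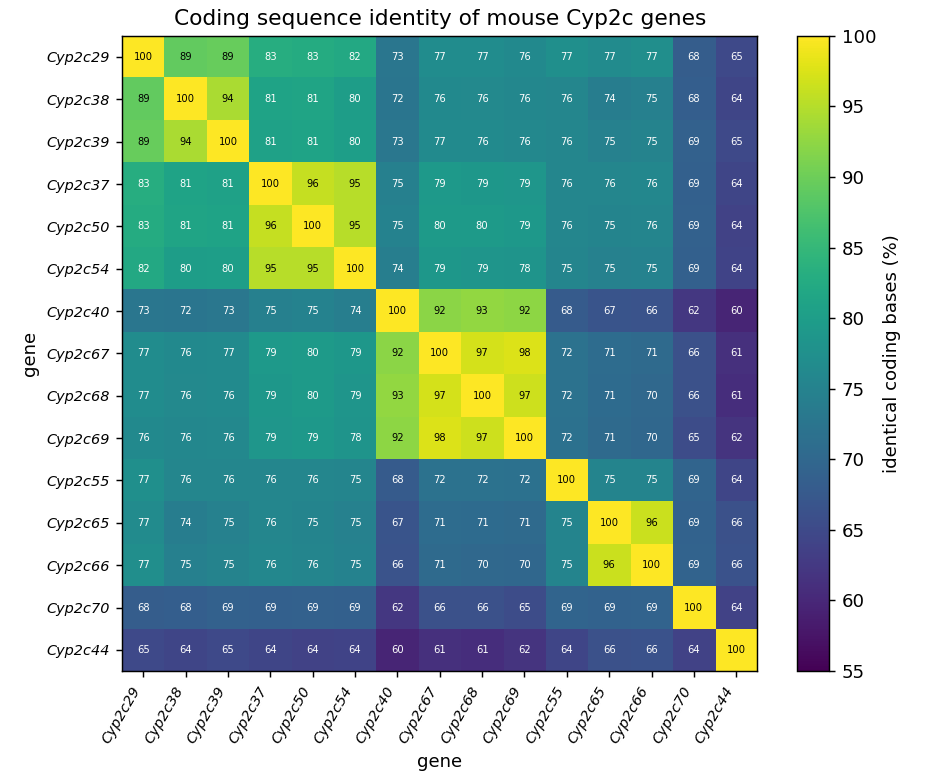
Identity of the coding sequences (percent of aligned bases, colour and printed number) between the 10 genes and 5 further protein-coding Cyp2c genes, with genes on both axes. The blocks of high identity are Cyp2c29/Cyp2c38/Cyp2c39, Cyp2c37/Cyp2c50/Cyp2c54, Cyp2c40/Cyp2c67/Cyp2c68/Cyp2c69 and Cyp2c65/Cyp2c66.

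This identity bears on the values, because a read that is the same in 2 genes cannot be assigned to either. Of all 100-base windows in the transcript, the length of the reads, 0% in Cyp2c29, Cyp2c38, Cyp2c39, Cyp2c44 and Cyp2c70 were shared exactly with another gene. The share was 4.70% in Cyp2c37, 7.59% in Cyp2c54, 9.40% in Cyp2c50, 19.8% in Cyp2c68 and 44.1% in Cyp2c40, so the separate levels of Cyp2c40 and Cyp2c68 are uncertain. The reads were aligned to the C57BL/6 reference, and how many reads of the wild mice were lost or moved between copies for that reason was not measured. The annotated span of Cyp2c39 also overlaps Cyp2c38 on the other strand. The libraries were stranded, but the sources used here do not state that strand was used in counting.

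RefSeq gives promoter windows for 8 of the 10 genes, all but Cyp2c54 and Cyp2c44, and Cyp2c39 has 2 start sites. The 120 bases before the start site are shown, 5′ to 3′ on the gene's strand, for the 3 genes of the Cyp2c29 subgroup and for Cyp2c70, which differed most between the groups of mice, and for the pair Cyp2c37 and Cyp2c50. On GRCm38.p6 they lie at chr19:39286965-39287084 (plus strand) for Cyp2c29, chr19:39463076-39463195 (minus) for Cyp2c38, chr19:39510702-39510821 (plus) for Cyp2c39, chr19:40187287-40187406 (minus) for Cyp2c70, chr19:39992304-39992423 (plus) for Cyp2c37 and chr19:40089559-40089678 (plus) for Cyp2c50. The start sites of Cyp2c29 and Cyp2c38 lie inside the annotated genes, which begin further upstream, at chr19:39287044 and chr19:39463103. The last bases of these 2 windows are thus within the gene. The TATAAA of Cyp2c29 lies inside that span, and the TATAAA of Cyp2c38 lies across its edge. For Cyp2c39 the start shown is the downstream one. Capitals mark matches on either strand to TATAAA, a core promoter box, to CAAAGTCCA, part of an element bound by HNF4A, or to ATTGAT, a core bound by HNF6 and CUX2.
Cyp2c29: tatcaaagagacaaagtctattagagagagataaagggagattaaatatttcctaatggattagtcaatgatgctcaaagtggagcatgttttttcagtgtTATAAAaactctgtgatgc
Cyp2c38: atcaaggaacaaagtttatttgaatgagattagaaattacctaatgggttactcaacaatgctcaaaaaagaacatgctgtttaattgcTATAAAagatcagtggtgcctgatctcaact
Cyp2c39: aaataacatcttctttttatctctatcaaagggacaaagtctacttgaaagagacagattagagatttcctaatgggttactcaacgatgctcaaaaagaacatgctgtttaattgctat
Cyp2c70: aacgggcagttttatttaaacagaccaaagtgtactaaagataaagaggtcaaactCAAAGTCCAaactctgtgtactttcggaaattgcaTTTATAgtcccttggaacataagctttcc
Cyp2c37: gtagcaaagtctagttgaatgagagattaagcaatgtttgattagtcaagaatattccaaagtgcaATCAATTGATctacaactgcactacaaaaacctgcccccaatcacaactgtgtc
Cyp2c50: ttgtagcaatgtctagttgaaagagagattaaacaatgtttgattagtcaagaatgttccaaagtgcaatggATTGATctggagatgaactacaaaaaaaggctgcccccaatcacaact

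In the 250 bases before the start, TATAAA was found in 3 of the 9 windows (Cyp2c29, Cyp2c38 and Cyp2c70) against 12.4% of all 32851 RefSeq promoters. CAAAGTCCA was found in 3 of 9 (Cyp2c40, Cyp2c68 and Cyp2c70) against 0.384%, and ATTGAT in 3 of 9 (Cyp2c37, Cyp2c50 and Cyp2c68) against 6.72%. TTCNNNGAA, the STAT5 site, was found in 0 of 9 against 7.02%. AGGTCA, the element of many nuclear receptors, was found in 3 of 9 against 14.0%, GTTAAT, part of the HNF1 site, in 2 of 9 against 6.43%, and TTGCNNAA, a C/EBP core, in 1 of 9 against 9.56%. The 2 matches to ATTGAT before Cyp2c37 overlap each other on opposite strands, and no matches to different motifs overlap. The windows of close copies share sequence and are not independent. Over these 250 bases the promoters of Cyp2c37 and Cyp2c50 were 84.3% identical, and those of Cyp2c38 and Cyp2c39 were 75.9% identical at the upstream start of Cyp2c39 and 71.0% at the start shown.

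The summed FPKM of the family was higher in the wild mice and its make-up differed. Summed over the 10 genes, FPKM was 983, 1153 and 837 in the laboratory mice, a mean of 991 ± 159 (SD, n = 3). It was 4422, 4529 and 4022 in the wild mice, a mean of 4324 ± 267 (SD, n = 3). The groups did not overlap, and taken singly 43.7% of all tested genes were higher in every wild mouse than in any laboratory mouse. Much of the difference came from Cyp2c29, with a mean of 45.5 in laboratory and 1745 in wild mice. Cyp2c54 was lower in wild mice, and Cyp2c40, Cyp2c44 and Cyp2c68 overlapped. Cyp2c50 was the most abundant member in every laboratory mouse, at 22.1%, 26.1% and 23.6% of the sum, while Cyp2c29 led in every wild mouse, at 62.5% in the male and 29.7% and 28.1% in the females. Cyp2c29 held only 3.35% to 5.24% of the sum in laboratory mice.

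**Figure D2:**
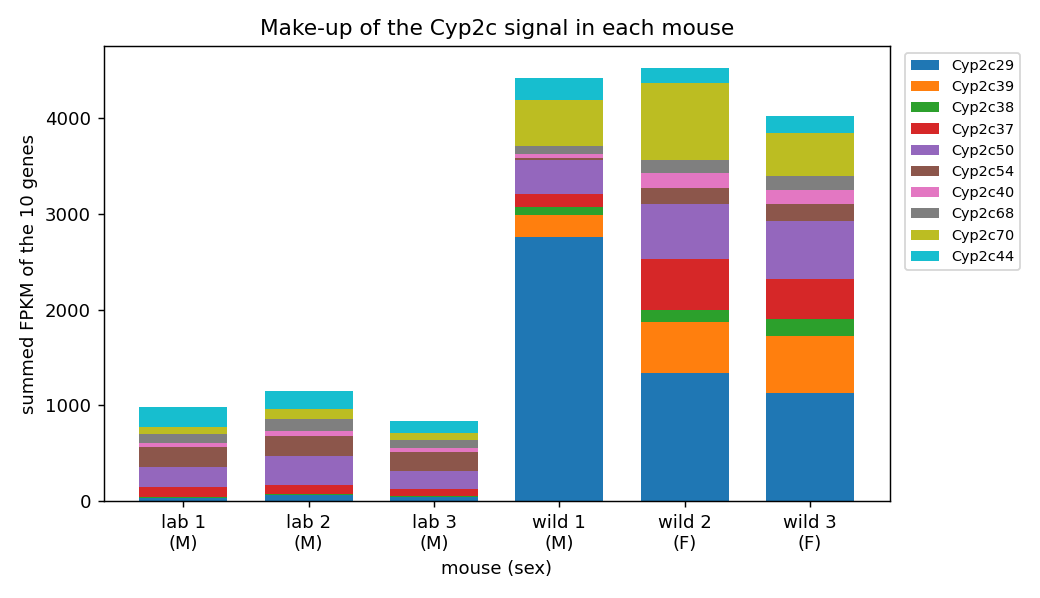
Stacked bars of the FPKM of the 10 Cyp2c genes in each mouse, with mouse and sex on the x axis and summed FPKM on the y axis. The wild bars reach 4022 to 4529, and the laboratory bars 837 to 1153. Cyp2c29 forms the largest block in each wild mouse.

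By sequence subgroup, the sum of Cyp2c29, Cyp2c38 and Cyp2c39 was 43.3, 73.1 and 55.9 FPKM in the laboratory group and 3075, 1995 and 1898 in the wild group, 40.4 times higher in the means. For Cyp2c37, Cyp2c50 and Cyp2c54 the sum was 518, 604 and 459 in laboratory males, 511 for the wild male and 1280 and 1209 for the wild females, so the wild male lay inside the laboratory range. The 4 genes Cyp2c40, Cyp2c67, Cyp2c68 and Cyp2c69 summed to 270.5, 308 and 249 in the laboratory group and 472, 509.7 and 549 in the wild group, 1.85 times higher in the means and without overlap.

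The comparison of laboratory with wild mice used limma on zFPKM over all 18619 tested genes. Of the 10 genes, 5 had an adjusted p under 0.05 and were lower in laboratory mice (Cyp2c29, Cyp2c37, Cyp2c38, Cyp2c39 and Cyp2c70), where 7.28% of all tested genes were called in that direction. Cyp2c54 was the 1 gene called higher in laboratory mice, where 7.17% of all tested genes were. The median difference over the 10 genes was -0.246 in zFPKM and 0.005 over all tested genes. On log2(FPKM + 0.1), which does not rescale each mouse, 6 were called lower (the 5 and Cyp2c50) and 0 higher, against 37.9% and 8.19% of all tested genes, and limma at an unadjusted p under 0.05 also gave 0 higher. On that scale the median over all tested genes was itself shifted, by -0.468. By FPKM alone, 6 of the 10 were higher in every wild mouse than in any laboratory mouse, against 43.7% of tested genes, and Cyp2c54 was the 1 gene higher in every laboratory mouse, against 12.1%. The limma p-values on zFPKM take the variance from its trend with expression alone, since the prior degrees of freedom were estimated as infinite, and so they are smaller than the spread of 3 mice alone would give. A two-sided exact permutation test of 3 mice against 3 cannot go below p = 0.1, and it gave p = 0.1 for the 7 genes without overlap.

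**Figure D3:**
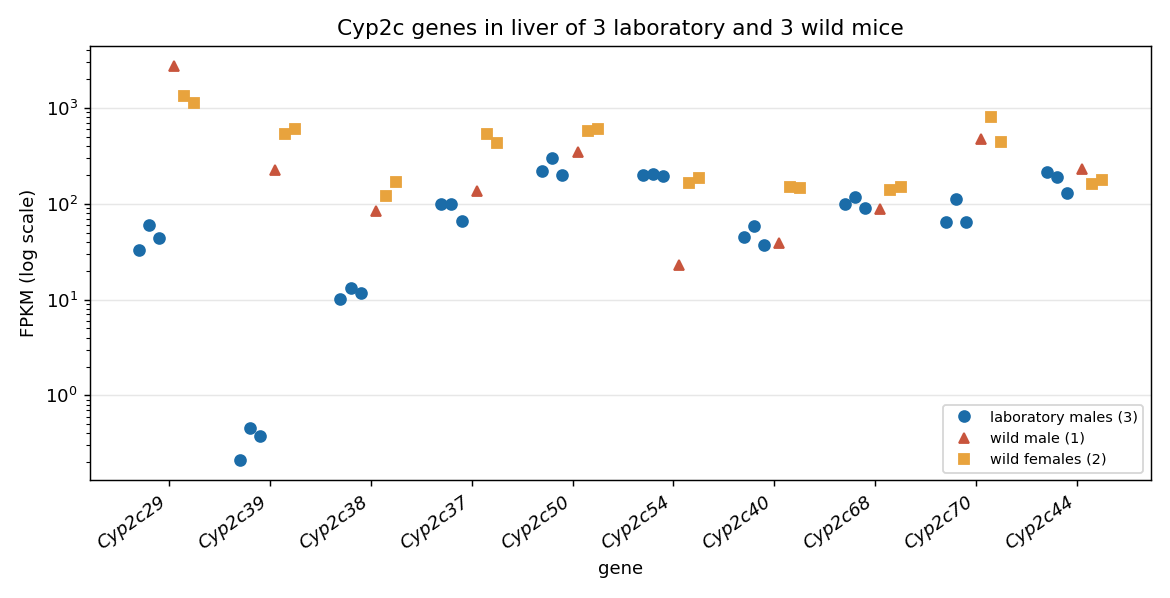
FPKM of each Cyp2c gene (log axis) in the 3 laboratory males (circles), the wild male (triangle) and the 2 wild females (squares), with genes on the x axis. Cyp2c39 lies below 1 in every laboratory mouse and between 227 and 602 in wild mice. For Cyp2c54 the wild male lies apart from the other 5 mice.

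Cyp2c39, whose product is known to hydroxylate retinoic acid, had the largest difference of the 10. Its FPKM was 0.210, 0.456 and 0.381 in laboratory males, 227 for the wild male and 529.8 and 602 for the wild females. All wild mice lay far above all laboratory mice, and the mean was 1298 times higher (453 ± 199 against 0.349 ± 0.126, SD, n = 3). Among all gene names in the same mouse it ranked 11484 to 12753 by FPKM in the laboratory group and 126 to 412 in the wild group. The zFPKM difference, laboratory minus wild, was -3.32 (standard error 0.179, limma adjusted p = 5.74e-73). On log2(FPKM + 0.1) the difference was -9.90 (limma adjusted p = 3.77e-05). The low laboratory values are the least precise of the 10 genes, with Cufflinks' upper 95% bound 42.0% and 48.7% above the value in laboratory mice 2 and 3. The mean fold rests on these small values.

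Cyp2c29, an arachidonate epoxygenase that responds to phenobarbital through CAR, had the highest level of any of the 10. Its FPKM was 32.97, 59.5 and 43.9 in laboratory males, 2763 for the wild male and 1344 and 1129 for the wild females. The groups did not overlap, and the wild male was the highest of the 6, at 2.24 times the mean of the wild females. The mean was 38.4 times higher in wild mice (1745 ± 888 against 45.5 ± 13.3, SD, n = 3), and its rank went from 832 to 1160 in laboratory mice to 24 to 63 in wild mice. The difference in zFPKM was -1.55 (standard error 0.107, limma adjusted p = 3.30e-44), against -5.19 on log2(FPKM + 0.1) (limma adjusted p = 8.76e-05).

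Cyp2c38, the closest relative of Cyp2c39 among the 10, had FPKM of 10.1, 13.1 and 11.6 in the laboratory group and 84.9, 122 and 168 in the wild group, the male being the lowest of the wild mice. Without overlap, the wild mean was 10.7 times higher (125 ± 41.4 against 11.6 ± 1.49, SD, n = 3). The zFPKM difference was -0.92 (standard error 0.143, limma adjusted p = 1.06e-08). All 3 genes of this subgroup were thus called lower in laboratory mice, by differences that themselves spanned 10.7-fold to 1298-fold in mean FPKM.

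Cyp2c70 makes muricholic acids, the bile acids typical of mice, from chenodeoxycholic acid. FPKM was 63.8, 110.9 and 64.2 in the laboratory group and 478, 802 and 443 in the wild group, with wild mouse 2, a female, the highest. Groups did not overlap and the wild mean was 7.21 times higher (574 ± 198 against 79.6 ± 27.1, SD, n = 3). Its difference was -0.73 in zFPKM (standard error 0.111, limma adjusted p = 4.03e-09).

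Within the Cyp2c37, Cyp2c50 and Cyp2c54 subgroup the 3 genes did not move together. Cyp2c37, an epoxygenase that also makes 12-HETE, had FPKM of 100.3, 99.8 and 66.4 in laboratory males, 137 for the wild male and 533 and 428 for the wild females. The wild male was much nearer to the laboratory males than to the wild females. In zFPKM the difference was -0.38 (standard error 0.114, limma adjusted p = 0.0103), and it was no longer called without laboratory mouse 3 (0.367), wild mouse 2 (0.363) or wild mouse 3 (0.297). Cyp2c50 had FPKM of 218, 301 and 197 in laboratory males, 351 for the wild male and 580.3 and 596 for the wild females. Values did not overlap, yet the zFPKM difference of -0.11 (standard error 0.105, limma adjusted p = 0.554) was not called, while on log2(FPKM + 0.1) the difference of -1.08 was (limma adjusted p = 0.0124).

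Cyp2c54, 95.2% identical to Cyp2c50, went the other way. FPKM was 199.9, 203 and 196 in laboratory males, 23.0 for the wild male and 167 and 185 for the wild females. The 3 laboratory values were close to each other and above all wild values, but the wild females lay just below them and the wild male far below, so the mean of 125 ± 88.7 (SD, n = 3) for wild mice describes none of them. The zFPKM difference was 0.68 (standard error 0.118, limma adjusted p = 3.40e-07), with an SD of 0.0557 in laboratory and 0.707 in wild mice. Without wild mouse 1 the adjusted p was 0.0952, without laboratory mouse 3 it was 0.1, and on log2(FPKM + 0.1) it was 0.236. The laboratory mean was 8.69 times the value of the wild male. In that male Cyp2c54 was the least abundant of the 10 genes, at 0.519% of their sum, against 17.6% to 23.4% in laboratory mice.

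Cyp2c40, Cyp2c68 and Cyp2c44 overlapped between the groups and were not called. Cyp2c40, whose product makes 16-HETE from arachidonic acid, had FPKM of 45.3, 58.0 and 37.3 in laboratory males, 38.6 for the wild male and 151 and 146 for the wild females (zFPKM difference -0.10, limma adjusted p = 0.706). Only the wild females were high. Cyp2c68 had FPKM of 100.4, 118 and 91.0 in the laboratory group and 89.2, 139 and 149 in the wild group (zFPKM difference 0.17, limma adjusted p = 0.412; -0.26 on log2(FPKM + 0.1)). For Cyp2c44, an epoxygenase studied in kidney and vessels as well as liver, FPKM was 212, 189 and 129 in the laboratory group and 229, 162 and 177 in the wild group, with a mean of 177 ± 43.1 against 189.7 ± 35.2 (SD, n = 3). Its zFPKM difference was 0.20 (standard error 0.113, limma adjusted p = 0.251), with the sign opposite on log2(FPKM + 0.1), at -0.12. Without laboratory mouse 3, Cyp2c44 was called higher in laboratory mice (0.31, limma adjusted p = 0.0172). The exact permutation test gave p = 0.3 for Cyp2c40, 0.4 for Cyp2c68 and 0.7 for Cyp2c44.

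The 2 sexes were compared in a model with origin and sex. Its sex term rests on 2 wild females against 1 wild male, who is assumed to vary like the others. Of the 10 genes, only Cyp2c54 was called higher in females, where 0.317% of all tested genes were, by 1.22 in zFPKM (standard error 0.143, limma adjusted p = 0.00114) and 7.65 times in FPKM. With the median of the tested genes set to 0 in each mouse the difference was 0.75 (limma adjusted p = 0.167), and without a trend of the variance its adjusted p in limma was 0.228. None was called lower in females, where 0.0591% of all tested genes were, and at an unadjusted p under 0.05 limma gave 1 gene lower and 5 higher. The female mean was 3.84 times the male value for Cyp2c40 (zFPKM difference 0.86, limma adjusted p = 0.0829), 3.50 times for Cyp2c37 (0.74, limma adjusted p = 0.114) and 2.49 times for Cyp2c39 (0.55, limma adjusted p = 0.483). Cyp2c29 was lower in the females, at 0.447 times the male value (-0.41, limma adjusted p = 0.354). The median sex term was 0.412 over the 10 genes and 0.375 over all tested genes. Leaving out wild mouse 2 or wild mouse 3 left 0 of the 10 called in this term (Cyp2c54, limma adjusted p = 0.810 and 0.664), with 3 higher in females at an unadjusted p under 0.05. Leaving out a laboratory mouse raised the number called higher in females to 3 (without mouse 1 or without mouse 2) and to 7 (without mouse 3), where Cyp2c29 was also called lower (limma adjusted p = 0.0397). The fit without laboratory mouse 3 also called genes of most other lists (described further on) higher in females. Among them were regulators, genes flanking the cluster, CAR and PXR targets, and pericentral, Kupffer and endothelial markers. In the hepatocyte, pancreatic and male-biased lists none was called higher. The share over all tested genes is not given for these fits.

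With sex in the model, the origin term sets the 3 laboratory males against the 1 wild male. Called lower in laboratory mice were 3 genes, Cyp2c29 (-1.83, limma adjusted p = 4.46e-05), Cyp2c39 (-2.95, limma adjusted p = 9.38e-05) and Cyp2c70 (-0.61, limma adjusted p = 0.0415), where 1.34% of all tested genes were called. Cyp2c54 was called higher (1.5, limma adjusted p = 0.000106), where 6.04% were. Cyp2c38 kept its direction at -0.64 and was not called (limma adjusted p = 0.0565), but was called when any 1 laboratory mouse was left out (limma adjusted p = 0.0304, 0.0282 and 0.0084). Cyp2c37 and Cyp2c50 changed sign on zFPKM, to 0.11 each (limma adjusted p = 0.719 and 0.65), and stayed below 0 on log2(FPKM + 0.1), at -0.65 and -0.58. On that scale 4 of the 10 genes were called lower and 1 higher with sex in the model, against 27.0% and 5.45% of all tested genes. Over all tested genes the median of this term was 0.275, and over the 10 genes 0.115. In FPKM the wild male was 651 times the laboratory mean for Cyp2c39, 60.8 times for Cyp2c29, 7.30 times for Cyp2c38, 6.01 times for Cyp2c70, 1.55 times for Cyp2c37 and 1.47 times for Cyp2c50. Without wild mouse 2 or without wild mouse 3, limma called 0 of the 10 genes in either direction, and at an unadjusted p under 0.05 it gave 4 lower and 2 higher each time. Without laboratory mouse 3, 4 genes were called lower and 5 higher (Cyp2c37, Cyp2c40, Cyp2c44, Cyp2c54 and Cyp2c68). That fit also called many regulators, flanking genes, and Kupffer and endothelial markers (described further on) higher in laboratory mice, but no pericentral markers. Its share over all tested genes is not given here.

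**Figure D4:**
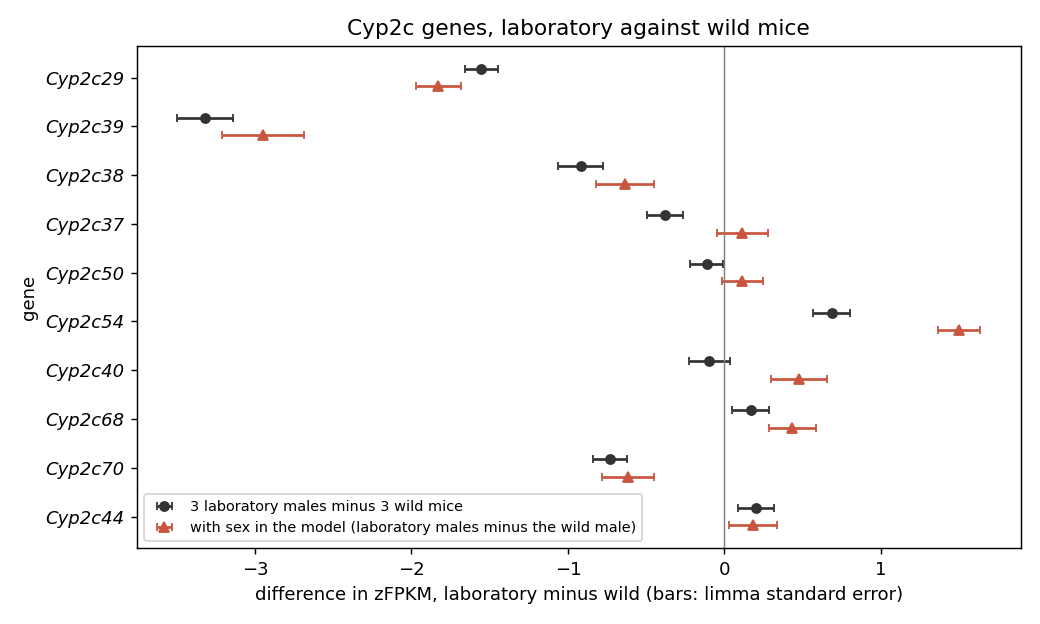
Difference in zFPKM between laboratory and wild mice for each Cyp2c gene (x axis; genes on the y axis), without sex in the model (circles) and with it (triangles), with limma standard errors as bars. Cyp2c29, Cyp2c39, Cyp2c38 and Cyp2c70 lie below 0 in both, Cyp2c54 above 0 in both, and Cyp2c37, Cyp2c50 and Cyp2c40 change side (on log2(FPKM + 0.1) Cyp2c37 and Cyp2c50 do not).

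Beyond the 10, 10 further Cyp2c names are listed, 5 protein coding and 5 pseudogenes. Cyp2c69 had FPKM of 6.88, 11.9 and 6.02 in laboratory males, 24.3 for the wild male and 168 and 171 for the wild females. It was called lower in the laboratory group (zFPKM difference -0.95, limma adjusted p = 3.75e-08), but not with sex in the model (-0.17, limma adjusted p = 0.720), and without laboratory mouse 3 none of the 6 tested genes among these further names was called lower in limma (1 at an unadjusted p under 0.05). When sex was in the model on log2(FPKM + 0.1), Cyp2c69 (-1.61, limma adjusted p = 0.02004) and Cyp2c67 (-1.44, limma adjusted p = 0.0110) were both called lower in laboratory mice. Cyp2c67, its close copy, had 118, 120.1 and 115 in laboratory males, 319 for the wild male and 51.3 and 83.1 for the wild females. Among the wild mice the male was thus the highest for Cyp2c67 and the lowest for Cyp2c40 and Cyp2c69. Of the windows of read length, 23.7% in Cyp2c67 and 36.3% in Cyp2c69 were shared exactly with another gene. The separate levels of Cyp2c67 and Cyp2c69 are therefore uncertain, like those of Cyp2c40 and Cyp2c68. Whether reads moved between these copies was not measured. The sex term of Cyp2c67 was -0.66 and was not called (limma adjusted p = 0.114). On log2(FPKM + 0.1) it was called (-2.29, limma adjusted p = 0.0430). Cyp2c55 reached at most 3.58 FPKM, with overlap. Cyp2c65 was at most 0.0588, Cyp2c66 was listed at 0 in every mouse, and the pseudogenes were at most 0.234.

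The members were not alike in their pattern over the 6 mice. By Pearson's r of zFPKM over 6 mice, given as a description, Cyp2c39 was most like Cyp2c38 among the members (0.973) and Cyp2c29 most like Cyp2c39 (0.959). Cyp2c54 was most like Cyp2c68 (0.905) and least like Cyp2c29 (-0.756). Over all tested genes the most alike was Gm1833 for Cyp2c29 (0.99), Pacsin3 for Cyp2c38 (0.999) and Bcas2 for Cyp2c70 (0.999). So few mice give very high values readily, with 1 to 55 genes above an r of 0.99 for each member, and the points share the 2 groups and the scaling of each mouse.

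Genes around the family also differed between the groups in part. Of all tested genes, 7.28% were called lower in laboratory mice by origin on zFPKM and 37.9% on log2(FPKM + 0.1). With sex in the model these shares were 1.34% and 27.0%. For the fits without 1 mouse the shares are not given here. Of 16 genes known as targets of CAR or PXR, 10 were called lower in laboratory mice (11 on log2(FPKM + 0.1)), with a median zFPKM difference of -0.439. Cyp2b10, the classic CAR target, was listed at 0 in laboratory mouse 1 and had FPKM values of 0.169 and 0.122 in the other laboratory mice, against 43.4 for the wild male and 9.42 and 7.62 for the wild females. The male was the highest of the wild mice for Cyp2b10, as for Cyp2c29, Cyp3a11, Aldh1a1, Gsta1 and Gsta2. It was the lowest of them for Ugt1a1, Abcc2, Abcc3, Slco1a4 and Por. The part of CAR or PXR in the Cyp2c values was not tested. Ugt1a1, which conjugates bilirubin, had 4.79, 5.91 and 4.48 against 205, 343 and 283. Cyp3a11, the main PXR target, had 451, 624 and 249.8 against 3931, 2273 and 361, so wild mouse 3 lay inside the laboratory range. The others called were Abcc2, Abcc3, Aldh1a1, Gsta1, Gsta2, Por and Slco1a4. After sex was added 5 of the 16 were called lower (Aldh1a1, Cyp2b10, Cyp3a11, Gsta1 and Ugt1a1), and 10 on log2(FPKM + 0.1). By origin, 8 were called lower and 1 higher without laboratory mouse 3, and 9 lower without wild mouse 1.

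The receptors themselves were not called. Nr1i3 had FPKM of 20.7, 26.9 and 46.6 in the laboratory group and 39.7, 53.3 and 84.5 in the wild group (zFPKM difference -0.05, limma adjusted p = 0.869), and Nr1i2 15.1, 18.9 and 29.0 against 26.1, 26.6 and 25.7 (0.13, limma adjusted p = 0.658). Of 15 regulators, 2 were called higher in laboratory mice, Bcl6 and Nr1h4, and 2 lower, Cux2 and Rxra, while on log2(FPKM + 0.1) 1 was higher and 8 lower. On that scale 8.19% of all tested genes were called higher and 37.9% lower. Without laboratory mouse 3, 1 was called in each direction, and without wild mouse 1, 1 higher and 2 lower. Rxra, the partner of both receptors, had 13.7, 18.4 and 16.5 against 73.1, 76.5 and 88.8 (-0.55, limma adjusted p = 0.00228). Its call was lost on zFPKM with sex in the model (-0.39, limma adjusted p = 0.212) but not on log2(FPKM + 0.1) (-2.18, limma adjusted p = 0.00205). Cux2, a repressor known from female liver, had 6.10 and 7.79 in the wild females and at most 0.0903 in the 4 males. Bcl6, a repressor known from male liver, had 8.60, 10.6 and 15.1 in laboratory males, 2.03 for the wild male and 7.09 and 13.3 for the wild females.

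Sex-biased liver genes moved with the groups as well. Of 12 female-biased genes 11 were called lower in laboratory mice, with a summed FPKM of 4.49 to 8.46 in laboratory mice, 172 for the wild male and 5693 and 4204 for the wild females. Adding sex left 9 of the 12 called lower, and 8 were called higher in females. Of the 9, Cyp2b9, Cyp2b13, Sult2a1, Sult3a1 and A1bg were listed at 0 in every laboratory mouse and set to the floor of -3. For the wild male FPKM was 29.7 for Cyp2b9, but 0.303 for Cyp2b13, 0.254 for Sult2a1, 0.438 for Sult3a1 and 0.459 for A1bg. With sex in the model these last calls rest on values near 0 and on the floor. Of 10 tested male-biased genes 7 were called higher in laboratory mice and 1, Ugt2b38, lower, against 3 and 1 on log2(FPKM + 0.1). Just 2 were called higher in laboratory mice with sex in the model (Hsd3b5 and Serpina1e), and 4 were called lower in females (Cyp2d9, Cyp4a12a, Cyp4a12b and Elovl3). The sum of the male-biased list was 5385 to 9079 FPKM in laboratory mice, 4510 to 7781 of it from Serpina1e alone, 1533 for the wild male and 461 and 395 for the wild females. Ugt2b38 was no longer called by origin without laboratory mouse 3 or without wild mouse 1. Their part in the Cyp2c values was not tested.

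Of 8 redox and heme genes, 3 were called lower in laboratory mice, and 7 on log2(FPKM + 0.1). Without laboratory mouse 3 it was 2. Cyb5b alone was called with sex in the model, and 4 on log2(FPKM + 0.1). Por, the electron donor of the Cyp2c enzymes, had FPKM of 44.9, 39.7 and 44.0 in the laboratory group and 116, 245 and 153 in the wild group (-0.41, limma adjusted p = 0.0128). Its difference with sex in the model was -0.14 (limma adjusted p = 0.639), and -1.44 on log2(FPKM + 0.1) (limma adjusted p = 0.0113). Cyb5b and Fech, the ferrochelatase that completes heme, were the others. Cyb5a, the most abundant, had 1088, 1211 and 814 against 1588, 1589 and 1929 and was not called on zFPKM (0.006, limma adjusted p = 0.980). It was called lower in laboratory mice on log2(FPKM + 0.1) (-0.73, limma adjusted p = 0.0307).

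Among 12 tested genes that make, carry or open arachidonate products, 2 were called lower in laboratory mice (Cyp2j5 and Cyp4a14) and 3 higher (Cyp2j9, Cyp4a12a and Fabp1), against 6 and 3 on log2(FPKM + 0.1). With sex in the model 1 was called lower (Cyp4a14) and 2 higher (Cyp2j9 and Fabp1). Cyp4a12a, a male-biased gene, lost its call there (0.55, limma adjusted p = 0.380), at 97.3 FPKM for the wild male and 0.287 and 0.0360 for the wild females. Cyp2j5, another liver epoxygenase, had 57.9, 82.9 and 53.7 FPKM in the laboratory group and 291, 264 and 317 in the wild group. Ephx2, soluble epoxide hydrolase, had 171, 230.2 and 159.8 against 486, 268 and 317, which did not overlap, and was not called on zFPKM (-0.07, limma adjusted p = 0.758). It was called lower on log2(FPKM + 0.1), by origin (-0.91, limma adjusted p = 0.0223) and with sex (-1.40, limma adjusted p = 0.0104).

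Cyp2c70 can be set beside 10 bile acid genes, of which 4 were called lower in laboratory mice (Akr1d1, Cyp7a1, Slc10a1 and Slc27a5), and 7 on log2(FPKM + 0.1). Cyp7a1, the rate-limiting enzyme of bile acid synthesis, had FPKM of 2.74, 6.22 and 5.08 in the laboratory group and 23.6, 40.9 and 24.9 in the wild group (-0.68, limma adjusted p = 0.00231). Without laboratory mouse 3, 3 of the list were called lower and 1 higher. With sex in the model limma called 0 of the 10, with 2 lower at an unadjusted p under 0.05, and 5 were lower on log2(FPKM + 0.1).

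Of 9 genes flanking the cluster on chromosome 19, 1 was called, Pdlim1, at 2.68, 5.38 and 3.70 FPKM in the laboratory group and 27.5, 41.5 and 29.1 in the wild group. The median over these neighbours was 0.010 in zFPKM.

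**Figure D5:**
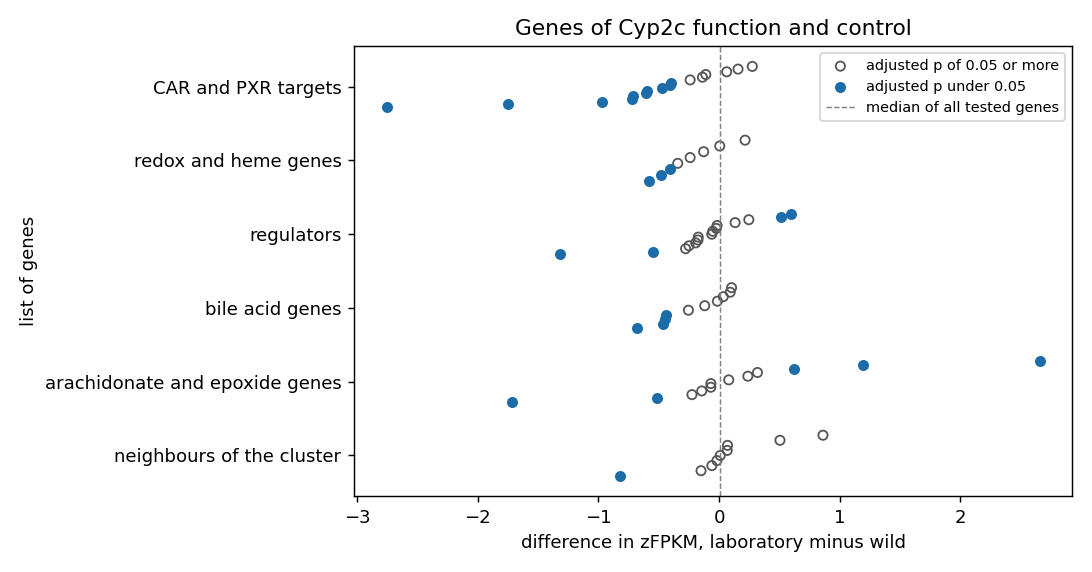
Difference in zFPKM, laboratory minus wild (x axis), for each tested gene of 6 lists (y axis), with filled circles for genes with a limma adjusted p under 0.05 and the dashed line at the median of all tested genes, 0.005. In the list of CAR and PXR targets 10 of 16 are filled, all to the left.

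Zonal markers also differed between the groups. The summed FPKM of 10 markers of pericentral hepatocytes, the zone known for the most P450, was 543 to 952 in the laboratory group and 4734 to 5257 in the wild group, and 6 of the 10 were called lower in laboratory mice (Cyp2e1, Glul, Gulo, Oat, Rhbg and Slc1a2). All 10 were on log2(FPKM + 0.1), and with sex in the model 3 (8 on log2). For 9 usable periportal markers the sums were 1991 to 2631 and 5199 to 6211, with 2 called lower (Ass1 and Hsd17b13). Of the 9, 6 were on log2(FPKM + 0.1), and with sex in the model limma called 0 (6 on log2), with 2 lower at an unadjusted p under 0.05. The summed FPKM of 8 Kupffer and endothelial markers was 37.8 to 52.0 in the laboratory group and 21.7 to 109.7 in the wild group, with 0 of 8 called by origin in limma and 2 higher at an unadjusted p under 0.05, and 1 called lower without wild mouse 1. With sex in the model 2 of them, Clec4f and Stab2, were called higher in laboratory mice. Intestinal markers gave 67.9 to 86.7 against 242 to 502, with 1 of 3 tested called lower (Apoa4, which liver also expresses), and pancreatic ones 5.21 to 9.84 against 3.24 to 18.97, with 0 of 3 called in limma, also at an unadjusted p under 0.05. The part of zonation in the Cyp2c values was not tested.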

How the data were processed

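Liver RNA of 3 laboratory and 3 wild mice was sequenced once per mouse. Per the study's methods, the authors made stranded mRNA libraries, read single ends of 100 bases, aligned them with kalign to masked GRCm38.p6 and calculated FPKM with the Tuxedo pipeline. The submitters' processing notes also name Picard. The deposited FPKM are scaled to transcript length and library size. The deposited zFPKM is a score the authors made from log2 FPKM with the R package zFPKM, with a mode and SD for each mouse. No counts were used here, so edgeR, the test in the study's methods, was not run, and the depth behind each value is unknown.

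Of 47256 gene names that every mouse lists once, 24 with a failed or capped estimate were left out. Values of zFPKM under -3 were set to -3, and genes above -3 in at least 3 of 6 mice were tested with limma 3.58.1 in R 4.3.3 (lmFit, eBayes with trend, Benjamini-Hochberg over all 18619 genes, adjusted p under 0.05), by origin alone and with sex. Single genes were also tested by a two-sided exact permutation test of log2(FPKM + 0.1). Each sample is 1 animal. By origin on zFPKM, the limma p-values rest on the variance trend over all tested genes, not on each gene's spread between these animals. With sex in the model, and on log2(FPKM + 0.1), each gene's own spread is weighed with that trend. Identity, shared windows and motifs were computed in Python 3.11.15 with Biopython 1.88 from GENCODE transcripts and RefSeq promoters. The fits were tested on simulated data.

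The 10 genes, the lists of other genes and the tests were chosen with earlier results of these data known. Named by rule are the 10 genes, the other Cyp2c names listed, list members that passed the test (those of the sex-biased lists mostly as counts), the most abundant member of a list, and the gene most like a member by Pearson's r (given for 3 of the 10, and 1 item is not reported here). Nr1i3, Nr1i2 and Ephx2 fall outside that rule and were named after their values were seen. Alternatives covered scale, normalization, floor, filter, variance model, sex and each mouse left out. The chromatin assays were not analysed here.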

Additional observations from a re-analysis of the deposited data

How the results depend on the processing

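The call of 5 Cyp2c genes lower in laboratory mice became 2 without a trend of the variance, 3 with sex as a covariate, and 0 with males only (where Cyp2c29 and Cyp2c39 had a limma adjusted p = 0.166) or without a filter on low values. Leaving out 1 mouse gave 4 or 5. The 1 gene higher, Cyp2c54, became 0 on log2(FPKM + 0.1), on log2(FPKM + 1), with the mode and SD averaged over the mice, with quantile normalization, with a floor of -5, without a filter, without a trend, with a robust fit and with males only, and 0 to 1 with 1 mouse left out (without laboratory mouse 3 the 1 was Cyp2c44). In the sex term the 1 gene higher in females became 0 with each mouse centred on a median of 0 or without a trend, 2 with quantile normalization, 3 with the filter in all 6 mice or a robust fit, and 0 to 7 with 1 mouse left out, and the 0 lower became 0 to 1. With sex as a covariate, the 3 lower became 0 without a filter and 0 to 4 with 1 mouse left out, and the 1 higher became 3 with quantile normalization or the filter in all 6 mice and 0 to 5 with 1 mouse left out. Shares over all tested genes are given above for the main fits and for the origin terms on log2(FPKM + 0.1). They are not given for the other settings, so those counts cannot be set against all tested genes. The wild male could not be left out of the fits with sex. The lists of other genes without laboratory mouse 3 or wild mouse 1 were fits chosen after seeing the data.

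Signs turned as follows, laboratory minus wild. With males only or sex as a covariate Cyp2c37 was 0.115, Cyp2c50 0.115 and Cyp2c40 0.476, and with 1 mouse left out Cyp2c40 ran from -0.385 to 0.0509, turning at 0.0347, 0.0401 and 0.0509 without laboratory mouse 3, wild mouse 3 and wild mouse 2. On log2(FPKM + 0.1), log2(FPKM + 1) and the averaged mode and SD, Cyp2c44 was -0.118, -0.117 and -0.0408 and Cyp2c68 -0.259, -0.257 and -0.0896. With sex as a covariate, on the same 3 scales and with the median set to 0, Cyp2c37 was -0.653, -0.647, -0.226 and -0.166, Cyp2c44 -0.408, -0.406, -0.141 and -0.0978, and Cyp2c50 -0.578, -0.576, -0.200 and -0.166. On log2(FPKM + 0.1) with the median set to 0, chosen after seeing the data, Cyp2c37 was -0.0581. In the sex term the median set to 0 gave -0.0485 for Cyp2c38, -0.132 for Cyp2c50, -0.0732 for Cyp2c68 and -0.298 for Cyp2c70. The cause was not tested. Cyp2c29, Cyp2c38, Cyp2c39, Cyp2c54 and Cyp2c70 kept their direction by origin, with and without sex, in every alternative. Over these the limma adjusted p by origin ran from 1.6e-54 to 0.166 for Cyp2c29, 5.74e-73 to 0.166 for Cyp2c39, 1.06e-08 to 0.399 for Cyp2c38, 1.28e-10 to 0.394 for Cyp2c70, 0.0063 to 0.812 for Cyp2c37 and 1.13e-07 to 0.45 for Cyp2c54. No paired analysis was possible because the labels give the mice specimen numbers and no shared replicate numbers.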
